A study of Homo sapiens with 32 samples.

Results

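PARP9, DTX3L, PARP10, PARP12 and PARP14 are 5 of the 62703 genes in the count tables. They were chosen by name, as the PARP9 and DTX3L pair and the related antiviral ADP-ribosyltransferases, and PARP9 and DTX3L were selected because both were higher in the IGF2BP1 knockout in these same libraries. The IGF2BP1 knockout is therefore described below without a test for these genes. The IGF2BP2 and IGF2BP3 knockouts, the difference between them and the comparison of nuclear with cytoplasmic RNA were tested.

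The libraries came from HEK293T, an established human embryonic kidney cell line, without any treatment beyond the editing itself. The 4 genotypes were a CRISPR control made with a guide that targets no mammalian gene and knockouts of IGF2BP1, IGF2BP2 and IGF2BP3, RNA-binding proteins that attach to many mRNAs. Each knockout was 1 clone grown from a sorted GFP-positive cell after transient delivery of 3 guides for the gene, so clone and knockout cannot be told apart. The labels do not say whether the control was a clone or whether replicates came from separate cultures, so p-values measure only the spread between these libraries. Poly(A) RNA was sequenced from whole cells (total RNA), nuclei and cytoplasm, with 4 control libraries and 2 libraries of each knockout per RNA kind, except for 4 libraries of the cytoplasmic IGF2BP3 knockout.

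PARP9 and DTX3L form a protein complex: DTX3L is a ubiquitin ligase of the Deltex family, and PARP9 is a macrodomain protein that binds ADP-ribose and partners with it. The complex is known for ubiquitin marking of histones after DNA damage and for raising the transcription of interferon-stimulated genes. PARP10, PARP12 and PARP14 attach single ADP-ribose units to proteins; all are interferon-stimulated, and PARP14 also carries macrodomains.

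PARP9 (ENSG00000138496) lies at chr3:122527924-122564577 on the minus strand and DTX3L (ENSG00000163840) at chr3:122564238-122575203 on the plus strand, in GENCODE 29 on GRCh38. Their annotated spans overlap by 340 bases, of which 217 are exonic in both. PARP14 (ENSG00000173193) follows at chr3:122680618-122730840 on the plus strand. PARP12 (ENSG00000059378) is at chr7:140023744-140063721 on the minus strand. Whether reads were counted by strand is not given in the sources used here, so reads from the shared bases cannot be assigned to a gene with certainty. The place of PARP10 is given with its values.

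The sequence between the DTX3L start and the PARP9 start at position 122564300 is shown because transcription from both leads away from it. The stretches before PARP14 and PARP12 are shown for comparison. All stretches are from RefSeq on GRCh38.p14, whose promoter windows matched 4 of the 5 genes. Capitals mark matches to GAAANNGAA, the repeat found in interferon response elements, searched on both strands.
PARP9 and DTX3L, chr3:122564301-122564345, plus strand: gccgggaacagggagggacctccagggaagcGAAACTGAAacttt
PARP14, chr3:122680719-122680838, plus strand: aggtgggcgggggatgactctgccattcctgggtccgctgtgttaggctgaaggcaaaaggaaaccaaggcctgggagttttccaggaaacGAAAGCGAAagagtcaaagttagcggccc
PARP12, chr7:140062952-140063071, minus strand: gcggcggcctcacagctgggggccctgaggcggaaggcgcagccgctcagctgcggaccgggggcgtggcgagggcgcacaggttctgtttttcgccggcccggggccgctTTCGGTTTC
The first stretch runs from the base after the PARP9 start to base 8 of DTX3L, and its repeat spans positions -6 to 3 of DTX3L and -40 to -32 of PARP9. The repeat of PARP14 lies at -29 to -21, and the PARP12 stretch ends in a repeat on the opposite strand at -9 to -1. Of 34943 windows of 300 bases around RefSeq starts, 8.10% held the repeat. A second PARP9 window, around a start at position 122564784, held no match. Transcription of PARP9 from that start runs across the first stretch.

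The depth of the libraries ranged from 13689067 to 26119480 counts. Edited-gene mRNA was at 5.31% of the control for IGF2BP1 (5.04% without the shared library described next), 40.2% for IGF2BP2 and 43.8% for IGF2BP3 in total RNA. The library labelled total IGF2BP1 knockout 2 and that labelled nuclear IGF2BP1 knockout 1 held the same count for each of the 62703 genes, so it is 1 library with an uncertain label, and fitted changes and ratios in the IGF2BP1 knockout that rest on it are followed by the value without it. The 5 HEK293T markers PAX2, VIM, KRT8, KRT18 and CDH2 were detected in all 32 libraries. The IGF2BP2 and IGF2BP3 knockouts were sequenced with the same control libraries of batches 3 and 4, so their changes are not independent of each other. A gene is said to have risen or fallen where edgeR's quasi-likelihood test, adjusted over all genes of the fit by Benjamini-Hochberg, gave an adjusted p under 0.05, and all changes are log2 ratios with their standard error (SE). These are bulk libraries, in which a change in the number of cells that carry a transcript and a change in RNA per cell cannot be told apart.

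PARP9 and DTX3L rose to 1.56 to 2.62 times the control level in the IGF2BP2 knockout, depending on the RNA kind. In the IGF2BP3 knockout PARP9 rose in total and nuclear RNA and DTX3L in each RNA kind, to 1.26 to 2.04 times the control level. PARP10 rose in both knockouts, to 2.83 to 3.51 times in the IGF2BP2 and 5.89 to 6.52 times in the IGF2BP3 knockout. PARP12 and PARP14 had few or no counts in every genotype. Of the 5 genes, 3 passed the filter on low counts. In total RNA, these 3 genes were called higher in the IGF2BP2 knockout, where 23.3% of the 18745 genes tested were called higher, and in the IGF2BP3 knockout, where 23.5% were. In nuclear RNA the same 3 were called higher in both knockouts, against 24.8% of all genes in the IGF2BP2 knockout and 25.1% in the IGF2BP3 knockout. In cytoplasmic RNA 3 were called higher in the IGF2BP2 knockout, where 30.9% of all genes were, and 2 in the IGF2BP3 knockout, where 31.5% were.

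**Figure D1:**
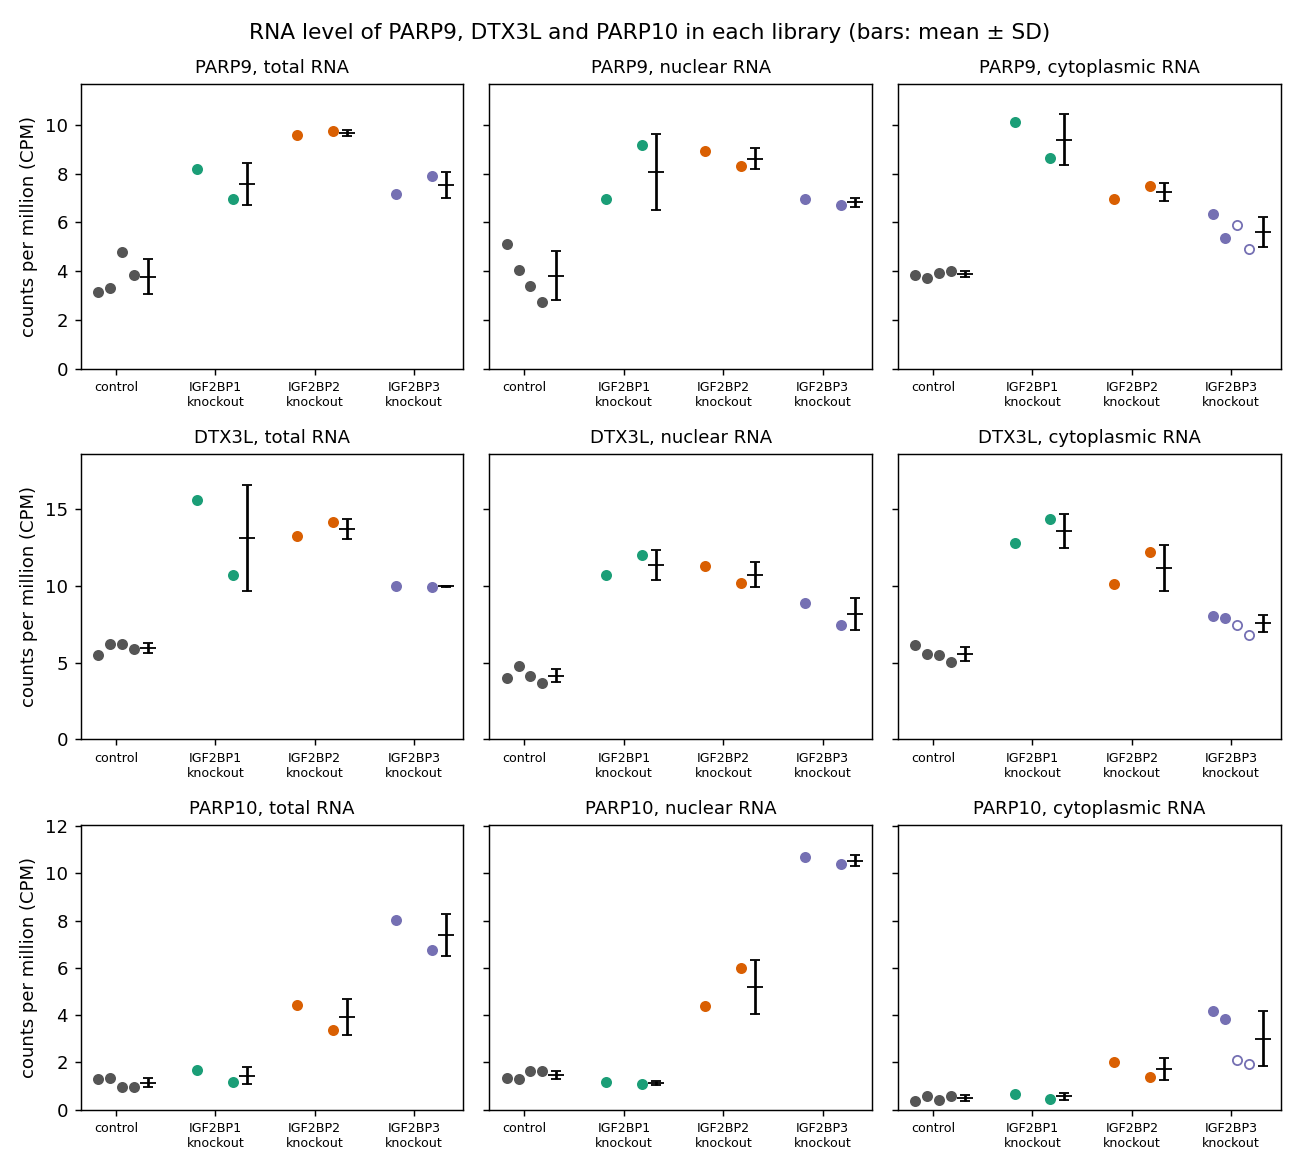
Level of PARP9, DTX3L and PARP10 in each library, in CPM, the count scaled to a library total of 1000000 (linear axis from 0), by genotype and RNA kind. Points are libraries, open points are the 2 cytoplasmic IGF2BP3 knockout libraries of batch 5, and bars are the mean and SD of a group. PARP10 is above the control in each IGF2BP2 and IGF2BP3 knockout library. In total RNA its IGF2BP1 knockout library at 1.69 CPM is above the control, and the one at 1.18 CPM, present under 2 labels, is within the control range.

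Levels of a gene between libraries are given in CPM, the count scaled to a library total of 1000000. CPM does not include the scaling between libraries (TMM) that the fits use, so a difference in CPM can be larger or smaller than the fitted change. PARP9 in total RNA was at 3.16, 3.33, 4.77 and 3.84 CPM in the control libraries and at 8.19 and 6.97 CPM in the IGF2BP1 knockout. It was at 9.58 and 9.77 CPM in the IGF2BP2 knockout and at 7.17 and 7.91 CPM in the IGF2BP3 knockout. Each IGF2BP2 and IGF2BP3 knockout library lay above the highest control library. The IGF2BP1 knockout, on which the pair was selected, is left out of such statements on the pair. How many of all genes show such a separation was not counted. PARP9 rose by 0.98 (SE 0.16, adjusted p 0.000317) in the IGF2BP2 knockout and by 0.58 (SE 0.16, adjusted p 0.0112) in the IGF2BP3 knockout by edgeR. The rise in the IGF2BP3 knockout was not called with DESeq2 (adjusted p 0.0606), without IGF2BP3 knockout library 2 (adjusted p 0.148) or without control library 4 (adjusted p 0.177).

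DTX3L in total RNA was at 5.51, 6.20, 6.22 and 5.90 CPM in the control libraries and at 15.6 and 10.7 CPM in the IGF2BP1 knockout. It was at 13.2 and 14.2 CPM in the IGF2BP2 knockout and at 10.0 and 9.95 CPM in the IGF2BP3 knockout. As for its partner, no IGF2BP2 or IGF2BP3 knockout library overlapped the control range. DTX3L rose by 0.99 (SE 0.16, adjusted p 0.000289) in the IGF2BP2 knockout and by 0.50 (SE 0.17, adjusted p 0.0245) in the IGF2BP3 knockout by edgeR. The latter was not called with DESeq2 (adjusted p 0.0743) or without IGF2BP3 knockout library 1 or 2 or control library 3 or 4 (adjusted p up to 0.183).

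In nuclear RNA, PARP9 was at 5.11, 4.06, 3.37 and 2.75 CPM in the control libraries and at 6.97 and 9.16 CPM in the IGF2BP1 knockout. It was at 8.91 and 8.32 CPM in the IGF2BP2 knockout and at 6.96 and 6.69 CPM in the IGF2BP3 knockout. The control libraries were more spread than in the other RNA kinds, yet none reached an IGF2BP2 or IGF2BP3 knockout library. PARP9 rose by 1.39 (SE 0.20, adjusted p 2.03e-07) in the IGF2BP2 knockout and by 1.03 (SE 0.21, adjusted p 5.35e-05) in the IGF2BP3 knockout by edgeR.

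DTX3L in nuclear RNA was at 4.02, 4.75, 4.15 and 3.69 CPM in the control libraries and at 10.7 and 12.0 CPM in the IGF2BP1 knockout. It was at 11.3 and 10.2 CPM in the IGF2BP2 knockout and at 8.88 and 7.43 CPM in the IGF2BP3 knockout. The control range was again separate from the IGF2BP2 and IGF2BP3 knockouts, of which the IGF2BP3 knockout was nearer to it. The IGF2BP1 and IGF2BP2 knockouts overlapped. DTX3L rose by 1.36 (SE 0.17, adjusted p 8.93e-09) in the IGF2BP2 knockout and by 0.93 (SE 0.18, adjusted p 2.09e-05) in the IGF2BP3 knockout by edgeR.

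In cytoplasmic RNA, PARP9 was at 3.85, 3.72, 3.95 and 4.01 CPM in the control libraries and at 10.1 and 8.64 CPM in the IGF2BP1 knockout. It was at 6.98 and 7.50 CPM in the IGF2BP2 knockout and at 6.33, 5.36, 5.89 and 4.92 CPM in the IGF2BP3 knockout. All IGF2BP2 and IGF2BP3 knockout libraries were above the control range in CPM, and the IGF2BP3 knockout was closer to it. In CPM, PARP9 in the IGF2BP3 knockout was above its same-batch control by 0.68 and 0.42 in log2, more than the fitted change given next. PARP9 rose by 0.64 (SE 0.15, adjusted p 0.000472) in the IGF2BP2 knockout by edgeR, while its change of 0.28 (SE 0.16) in the IGF2BP3 knockout was not called (adjusted p 0.116). With upper quartile normalization, which moved the median change of all genes by 0.17 in this comparison, the latter was 0.45 and was called (adjusted p 0.0125). It was also called in the fit without the batch term, the replicate block, at 0.35 (adjusted p 0.0214).

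DTX3L in cytoplasmic RNA was at 6.16, 5.56, 5.50 and 5.05 CPM in the control libraries and at 12.8 and 14.4 CPM in the IGF2BP1 knockout. It was at 10.1 and 12.2 CPM in the IGF2BP2 knockout and at 8.05, 7.93, 7.46 and 6.81 CPM in the IGF2BP3 knockout. Its lowest IGF2BP2 or IGF2BP3 knockout library, 1 of batch 5, was above the highest control library. DTX3L rose by 0.86 (SE 0.13, adjusted p 6.95e-07) in the IGF2BP2 knockout and by 0.33 (SE 0.14, adjusted p 0.0347) in the IGF2BP3 knockout by edgeR. The rise in the IGF2BP3 knockout was not called with DESeq2 (adjusted p 0.163), without the replicate block (adjusted p 0.0553), without IGF2BP3 knockout library 1 (adjusted p 0.193) or without control library 4 (adjusted p 0.371).

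The IGF2BP1 knockout, on which the pair was selected, is described here only. The fitted change of PARP9 in total, nuclear and cytoplasmic RNA was 1.17 (SE 0.17), 0.81 (SE 0.18) and 1.23 (SE 0.14). Without the library present under both labels it was 1.31 (SE 0.22) in total RNA and 1.21 (SE 0.21) in nuclear RNA. With that library as the only IGF2BP1 knockout library, it was 1.01 in total and 0.38 in nuclear RNA. The change of DTX3L was 1.10 (SE 0.16), 1.36 (SE 0.16) and 1.14 (SE 0.12) in the same order. Without that library it was 1.43 (SE 0.17) in total RNA and 1.37 (SE 0.19) in nuclear RNA, and with it as the only one 0.73 and 1.34. In these fits, 24.2%, 25.7% and 44.4% of all genes were called in either direction, in the same order. In the 4 same-batch pairs of an IGF2BP1 knockout with a control library that do not use the shared library, PARP9 was higher by 2.26 to 2.63 times in CPM and DTX3L by 2.08 to 2.83 times.

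The level of PARP9 relative to its partner was followed over the genotypes. Per kilobase (kb) of exon sequence, 8.94 kb for PARP9 and 5.87 kb for DTX3L, the PARP9 level was 0.435 ± 0.0613 times the DTX3L level in total RNA (SD, n = 10). The ratio was 0.551 ± 0.109 in nuclear RNA (SD, n = 10) and 0.464 ± 0.0473 in cytoplasmic RNA (SD, n = 12). In total RNA the ratio was 0.415 ± 0.0665 in the control (SD, n = 4), 0.387 ± 0.0587 in the IGF2BP1 knockout (0.345 in the library that is not shared), 0.464 ± 0.0160 in the IGF2BP2 knockout and 0.496 ± 0.0364 in the IGF2BP3 knockout (SD, n = 2 each). Single libraries in total RNA ran from 0.353 to 0.503 in the control and from 0.345 to 0.428 in the IGF2BP1 knockout. They ran from 0.453 to 0.476 in the IGF2BP2 and from 0.470 to 0.522 in the IGF2BP3 knockout. A difference of this ratio between genotypes was not tested. The size of the ratio depends on the exon lengths used, which are unions of all annotated exons. In nuclear RNA the control had the widest range, 0.490 to 0.833. Across 31 libraries, with the shared library counted once and each RNA kind centred on its own mean, Pearson's r of log2 CPM was 0.94 for PARP9 with DTX3L. It was 0.44 for PARP9 with PARP10 and 0.34 for DTX3L with PARP10. PARP9 and DTX3L were selected on their rise in the IGF2BP1 knockout, whose libraries are among the 31, and they share exonic bases. Part of their r, and of its contrast with PARP10, was therefore set by the selection. The libraries share genotypes and batches, so these values describe the pattern and carry no test.

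**Figure D2:**
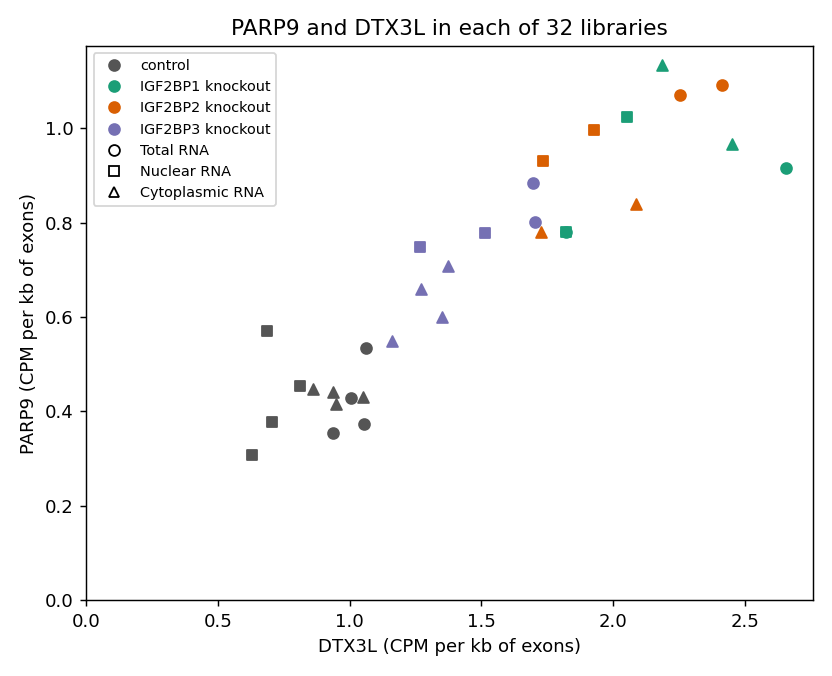
PARP9 against DTX3L, both in CPM per kb of exon sequence (linear axes from 0), 1 point per library. Colour gives the genotype and shape the RNA kind. The control libraries sit at the lower left, and the mean PARP9 to DTX3L ratio is 0.435 in total, 0.551 in nuclear and 0.464 in cytoplasmic RNA.

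PARP10 (ENSG00000178685), on the minus strand of chromosome 8 at chr8:143977153-144012772, attaches single ADP-ribose units to proteins and shares 324 exonic bases with GRINA and 197 with SPATC1, both on the opposite strand. PARP10 in total RNA was at 1.28, 1.35, 0.983 and 0.973 CPM in the control libraries and at 1.69 and 1.18 CPM in the IGF2BP1 knockout. It was at 4.45 and 3.37 CPM in the IGF2BP2 knockout and at 8.02 and 6.76 CPM in the IGF2BP3 knockout. Of the IGF2BP1 knockout libraries, that at 1.69 CPM lay above the control range and the shared one, at 1.18 CPM, within it. The other knockouts formed separate steps above the control. PARP10 rose by 1.81 (SE 0.25, adjusted p 7.05e-05) in the IGF2BP2 knockout and by 2.71 (SE 0.22, adjusted p 1.24e-06) in the IGF2BP3 knockout by edgeR.

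PARP10 in nuclear RNA was at 1.34, 1.30, 1.64 and 1.63 CPM in the control libraries and at 1.18 and 1.07 CPM in the IGF2BP1 knockout. It was at 4.38 and 6.01 CPM in the IGF2BP2 knockout and at 10.7 and 10.4 CPM in the IGF2BP3 knockout. Both IGF2BP1 knockout libraries, of which that at 1.18 CPM is the shared one, lay just under the control range. PARP10 rose by 1.58 (SE 0.25, adjusted p 7.99e-07) in the IGF2BP2 knockout and by 2.56 (SE 0.23, adjusted p 4.85e-13) in the IGF2BP3 knockout by edgeR.

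PARP10 in cytoplasmic RNA was lowest, at 0.385, 0.597, 0.419 and 0.604 CPM in the control libraries, which is 7 to 13 counts each, and at 0.672 and 0.466 CPM in the IGF2BP1 knockout. It was at 2.04 and 1.38 CPM in the IGF2BP2 knockout and at 4.18, 3.83, 2.09 and 1.93 CPM in the IGF2BP3 knockout. The IGF2BP2 and IGF2BP3 knockouts were above all control libraries. The IGF2BP3 knockout split by batch, with a mean of 4.00 ± 0.246 CPM in batches 3 and 4 and of 2.01 ± 0.112 CPM in batch 5 (SD, n = 2 each), and batch 5 held no control. PARP10 rose by 1.50 (SE 0.36, adjusted p 0.000516) in the IGF2BP2 knockout and by 2.68 (SE 0.31, adjusted p 2.34e-09) in the IGF2BP3 knockout by edgeR, where batch 5 informs only the spread.

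In same-batch pairs of libraries, PARP10 in CPM was 2.29 to 4.87 times its control level in the IGF2BP2 knockout. In the IGF2BP3 knockout it was 6.34 to 9.98 times, and it was higher in 6 of 6 pairs in both. The pairs are batches 3 and 4 of 1 clone per knockout in each RNA kind, with shared control libraries, and not 6 independent replicates. The share of all genes higher in each pair was not counted. By the fits PARP10 was 2.83 to 3.51 and 5.89 to 6.52 times its control level in these knockouts. In the IGF2BP1 knockout it was higher in 2 of the 4 pairs without the shared library, with fitted changes in total, nuclear and cytoplasmic RNA of 0.07 (SE 0.27), -0.25 (SE 0.31) and 0.14 (SE 0.45). Without the library present under both labels these were 0.33 (SE 0.37) in total and -0.25 (SE 0.41) in nuclear RNA. GRINA, which lies within the PARP10 span on the other strand, changed by -0.23 (SE 0.10, adjusted p 0.0767) in the IGF2BP2 knockout and -0.22 (SE 0.10, adjusted p 0.0927) in the IGF2BP3 knockout in total RNA by edgeR, and neither change was called. In cytoplasmic RNA of the IGF2BP3 knockout GRINA fell by 0.12 (SE 0.05, adjusted p 0.0345). The summed level of the 4 nuclear RNA markers MALAT1, NEAT1, KCNQ1OT1 and MEG3 moved with PARP10 in total RNA. It was 249 to 305 CPM in the control, 293 to 334 CPM in the IGF2BP1 knockout, 768 to 793 CPM in the IGF2BP2 knockout and 1167 to 1424 CPM in the IGF2BP3 knockout. MEG3 was at 0 in 27 of 32 libraries. The sum gives the most weight to NEAT1, with a median of 195 CPM over the libraries and a highest value of 999 CPM. MALAT1 had a median of 100 and a highest value of 390 CPM, and KCNQ1OT1 13.0 and 35.0 CPM. The sum can therefore follow NEAT1 alone. In nuclear RNA the sum was 262 to 372 CPM in the control, 248 to 334 CPM in the IGF2BP1, 511 to 558 CPM in the IGF2BP2 and 974 to 1123 CPM in the IGF2BP3 knockout. In cytoplasmic RNA the ranges were 128 to 150, 171 to 173, 636 to 663 and 273 to 785 CPM in the same order. The summed level of the 4 white blood cell markers PTPRC, CD34, CD33 and SPI1 was 0.342 to 0.655 CPM in the control, 0.330 to 0.596 CPM in the IGF2BP1, 0.556 to 0.725 CPM in the IGF2BP2 and 0.945 to 1.30 CPM in the IGF2BP3 knockout in total RNA, with PTPRC at 0 in 23 of 32 libraries. The part of either marker list in the PARP10 result was not tested.

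PARP12 held 40 counts in all 32 libraries together, with at most 6 in any library, and did not pass the filter in any RNA kind. The 12 control libraries held 5 counts in sum and the 6 IGF2BP1 knockout libraries 2 counts. All 6 IGF2BP2 knockout libraries held at least 1 count, 18 in sum, and 7 of 8 IGF2BP3 knockout libraries did, 15 in sum. These are too few counts for a fold change. PARP14 held 3 counts in 32 libraries, 1 in each knockout, and was at 0 in all 12 control libraries. A count of 0 allows up to 3 counts in a library, which is 0.115 to 0.219 CPM at these depths and covers counting error only. PARP14 RNA was not detectable in the control at this depth.

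Levels of different genes were compared as CPM per kb of exon sequence. In total RNA of the control, DTX3L had the highest level, 1.02 ± 0.0569, followed by PARP9 with 0.422 ± 0.0811 and PARP10 with 0.190 ± 0.0329 CPM per kb (SD, n = 4). Neighbours in this order were separated by more than their SDs. The length is the union of all annotated exons, not that of the transcripts present in these cells, which was not determined. The order and the distances between genes depend on this choice. Without division by length the means were 5.96, 3.78 and 1.15 CPM in the same order. In nuclear RNA of the IGF2BP3 knockout the order was different, with PARP10 at 1.75 ± 0.0373, DTX3L at 1.39 ± 0.175 and PARP9 at 0.764 ± 0.0207 CPM per kb (SD, n = 2). PARP12 was at 0.00186 ± 0.00372 CPM per kb in total RNA of the control (SD, n = 4).

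The IGF2BP3 knockout was tested directly against the IGF2BP2 knockout. DTX3L was lower and PARP10 higher in the IGF2BP3 knockout in each RNA kind, and PARP9 was lower in total and cytoplasmic RNA. In total RNA PARP9 differed by -0.40 (SE 0.15, adjusted p 0.0442), DTX3L by -0.49 (SE 0.15, adjusted p 0.0183) and PARP10 by 0.90 (SE 0.17, adjusted p 0.00112) by edgeR, with 43.3% of all genes called in either direction. In nuclear RNA DTX3L differed by -0.43 (SE 0.16, adjusted p 0.0203) and PARP10 by 0.98 (SE 0.19, adjusted p 3.53e-05), while the difference of PARP9, -0.36 (SE 0.18), was not called (adjusted p 0.0916). There 48.2% of all genes were called. In cytoplasmic RNA PARP9 differed by -0.36 (SE 0.13, adjusted p 0.0171), DTX3L by -0.53 (SE 0.11, adjusted p 9.52e-05) and PARP10 by 1.17 (SE 0.21, adjusted p 1.36e-05), with 62.7% of all genes called.

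The PARP10 differences in nuclear and cytoplasmic RNA and the DTX3L difference in cytoplasmic RNA were called under every alternative run. In total RNA the PARP10 difference was not called without IGF2BP2 knockout library 2 (adjusted p 0.0581). The PARP9 difference in total RNA was not called with DESeq2 (adjusted p 0.234), with upper quartile normalization (adjusted p 0.0607), without the replicate block (adjusted p 0.0969) or when any of the 4 libraries of these knockouts or control library 3 or 4 was left out (adjusted p 0.0612 to 0.390). The DTX3L differences were not called with DESeq2 in total RNA (adjusted p 0.0784) or nuclear RNA (adjusted p 0.124), nor in nuclear RNA without the replicate block (adjusted p 0.0645), nor when any of the 4 knockout libraries was left out (adjusted p up to 0.222). The PARP9 difference in cytoplasmic RNA was not called with DESeq2 (adjusted p 0.181), without the replicate block (adjusted p 0.0617) or without IGF2BP2 or IGF2BP3 knockout library 2 (adjusted p up to 0.332). In nuclear RNA the PARP9 difference was called with only batches 3 and 4 (adjusted p 0.0407), and when an IGF2BP1 knockout library or control library 1 or 2 was left out (adjusted p 0.0377 to 0.0411).

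**Figure D3:**
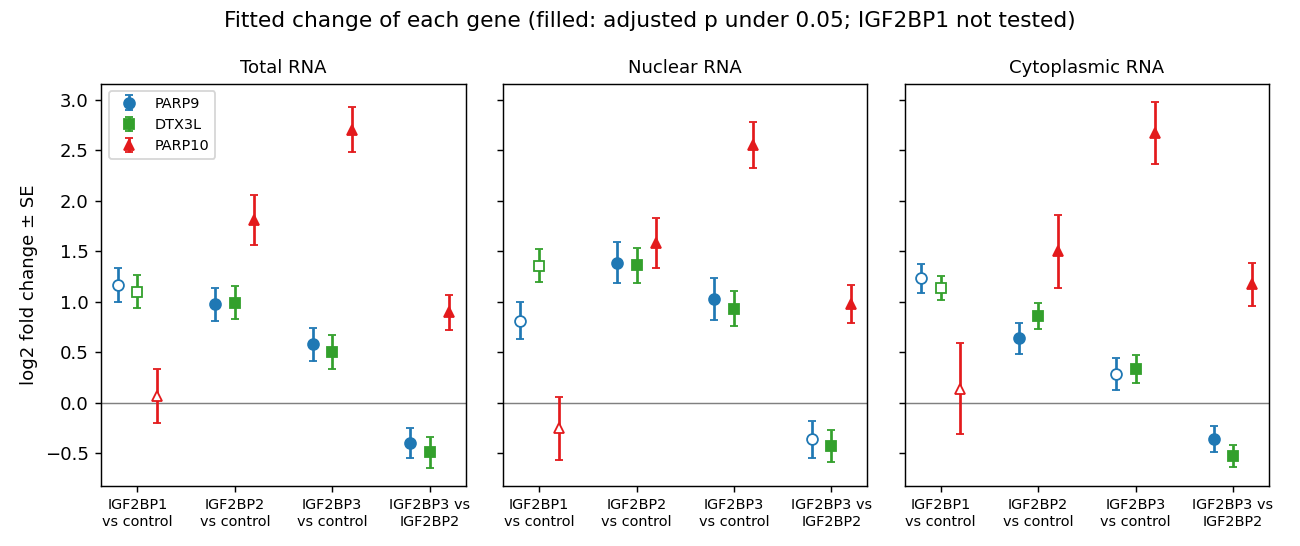
Fitted log2 fold change and SE (linear axis) of PARP9, DTX3L and PARP10 in each RNA kind for the knockouts against control and for the IGF2BP3 against the IGF2BP2 knockout. Filled symbols passed an adjusted p of 0.05, and the IGF2BP1 values are open because they were not tested. PARP10 runs from 0.07 in the IGF2BP1 knockout to 2.71 in the IGF2BP3 knockout in total RNA, while PARP9 runs from 1.17 to 0.58 and DTX3L from 1.10 to 0.50.

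In control cells the members differed in where their RNA was found. PARP10 RNA was higher in the nuclear than in the cytoplasmic libraries, by 1.39 (SE 0.27, adjusted p 9.42e-05), and DTX3L RNA was lower, by -0.55 (SE 0.13, adjusted p 0.00063) by edgeR. PARP9 differed by -0.15 (SE 0.16, adjusted p 0.417), which was not called. Of all genes, 65.9% were called in this comparison. Markers of the fractions followed the labels, with MALAT1 higher by 2.15 (SE 0.08) in nuclear RNA and GAPDH at -0.69 (SE 0.10). These values are relative to the RNA of each fraction and are not amounts per cell.

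The nuclear to cytoplasmic ratio of PARP9 rose in the IGF2BP2 knockout by 0.71 (SE 0.26, adjusted p 0.0442) by edgeR, with 17.5% of all genes called. The summed nuclear RNA markers given above were lower in the nuclear than in the cytoplasmic libraries of this knockout, 511 to 558 against 636 to 663 CPM, the reverse of the control, and their part in the ratio was not tested. This call was lost with DESeq2 (adjusted p 0.333), with RLE size factors (adjusted p 0.0529), with upper quartile normalization (adjusted p 0.0739), without the replicate block (0.30, adjusted p 0.497) and when any of the 8 nuclear or cytoplasmic libraries of batches 3 and 4 from the control or this knockout was left out (adjusted p 0.104 to 0.332). In the IGF2BP3 knockout the change was 0.68 (SE 0.26, adjusted p 0.0803) and was not called. DTX3L changed by 0.47 (SE 0.23, adjusted p 0.142) and 0.55 (SE 0.23, adjusted p 0.120), and PARP10 by 0.03 (SE 0.63, adjusted p 0.987) and -0.18 (SE 0.44, adjusted p 0.867), in the IGF2BP2 and IGF2BP3 knockouts. In the IGF2BP3 knockout, where 10.9% of all genes were called, the members called numbered 0 by edgeR and 0 by DESeq2, and 2 had an unadjusted p under 0.05 by edgeR.

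Related genes were followed to set the members beside their families. Among all genes, 24.2% were called in either direction in the IGF2BP1 knockout in total RNA. In the same RNA kind 47.0% were called in either direction in the IGF2BP2 knockout and 46.9% in the IGF2BP3 knockout in total RNA. For nuclear RNA the shares were 49.7% and 50.4%, and for cytoplasmic RNA 64.2% and 64.7%. The median change of all genes lay between 0.00 and 0.02 in the comparisons with control.

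Of the 13 other ADP-ribosyltransferases, 12 were tested in total RNA. In the IGF2BP2 knockout 5 rose and 1 fell, with a list median of 0.24; the largest rises were those of PARP3, an enzyme of DNA repair, by 0.97 (SE 0.12, adjusted p 4.41e-05), PARP16, an enzyme of the endoplasmic reticulum, by 0.74 (SE 0.14, adjusted p 0.000909), and PARP6 by 0.73 (SE 0.11, adjusted p 0.000143). In the IGF2BP3 knockout 1 rose and 3 fell, with a median of 0.03; PARP6 rose by 0.43 (SE 0.11, adjusted p 0.00611) and PARP4, the enzyme of vault particles, fell by 0.48 (SE 0.10, adjusted p 0.00204). In the IGF2BP1 knockout PARP3 rose by 1.14 (SE 0.13, adjusted p 4.72e-05) and TNKS2, a tankyrase, fell by 0.57 (SE 0.11, adjusted p 0.00228). Without the shared library PARP3 was at 0.98 (SE 0.14) and TNKS2 at -0.32 (SE 0.08), and both were still called. Against the IGF2BP2 knockout, the 12 genes ran from -1.10 to -0.02 in the IGF2BP3 knockout, where 4 were called lower in total RNA, against 21.5% of all genes. In the nuclear libraries 5 were called lower, against 24.1% of all genes, and in the cytoplasmic ones 8, against 31.5%. PARP3 had the largest of these differences in total RNA, -1.10 (SE 0.12, adjusted p 1.72e-05). PARP15, which lies between DTX3L and PARP14, did not pass the filter.

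Of the 6 genes that remove ADP-ribose, 2 rose and 1 fell in the IGF2BP2 knockout in total RNA. MACROD2 rose by 1.28 (SE 0.23, adjusted p 0.000503), OARD1 rose by 0.81 (SE 0.11, adjusted p 6.17e-05), and PARG, which cuts poly(ADP-ribose) chains, fell by 0.27 (SE 0.10, adjusted p 0.0317), a call lost with DESeq2 (adjusted p 0.0697). In the IGF2BP3 knockout ADPRH, an ADP-ribosylarginine hydrolase, rose by 2.17 (SE 0.81, adjusted p 0.0416), which DESeq2 did not call (adjusted p 0.127), and MACROD1 fell by 0.42 (SE 0.12, adjusted p 0.0119). In the IGF2BP1 knockout ADPRH rose by 3.14 (SE 0.60, adjusted p 0.00232), from 0.101 ± 0.0729 CPM in the control (SD, n = 4) to 1.11 ± 0.110 CPM (SD, n = 2). DESeq2 gave it no adjusted p, and without the shared library it was at 3.10 (SE 0.83, adjusted p 0.00690). At its control level ADPRH could pass the filter on low counts only through knockout libraries, so a rise could be called but hardly a fall. In the same comparison MACROD1 fell by 0.39 (SE 0.12, adjusted p 0.0317) and PARG fell by 0.33 (SE 0.10, adjusted p 0.0239) by edgeR, and DESeq2 called neither (adjusted p 0.0796 and 0.0571). Without the shared library PARG was not called either (adjusted p 0.0632).

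Among the 4 other Deltex genes, relatives of DTX3L, DTX3 rose in each knockout in total RNA. Its change was 1.79 (SE 0.15, adjusted p 5.97e-06) in the IGF2BP1, 1.73 (SE 0.15, adjusted p 2.45e-06) in the IGF2BP2 and 1.91 (SE 0.15, adjusted p 8.13e-07) in the IGF2BP3 knockout. DTX4 went in different directions in total RNA. It fell by 1.39 (SE 0.30, adjusted p 0.00517) and by 1.26 (SE 0.33, adjusted p 0.00708) in the IGF2BP1 and IGF2BP2 knockouts by edgeR. It rose by 1.93 (SE 0.22, adjusted p 1.59e-05) in the IGF2BP3 knockout. The fall in the IGF2BP1 knockout was called in total RNA only. That in the IGF2BP2 knockout was also called in nuclear RNA, at -1.04 (SE 0.39, adjusted p 0.0255), but not in cytoplasmic RNA. Without the shared library DTX3 was at 1.65 (SE 0.19) and DTX4 at -1.39 (SE 0.45) in the IGF2BP1 knockout, and both were still called. DTX1, a regulator of Notch signalling, rose by 3.59 (SE 0.43, adjusted p 2.57e-05) in the IGF2BP3 knockout, from 0.175 ± 0.0597 CPM in the control (SD, n = 4) to 2.26 ± 0.390 CPM (SD, n = 2). At this control level DTX1 could pass the filter on low counts only through knockout libraries, so a rise could be called but hardly a fall.

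The interferon receptors and the genes of their pathway, which carry the interferon signal, were a list of 12 genes, of which 11 were tested in total RNA. In the IGF2BP1 knockout 0 of the 11 were called by edgeR or by DESeq2 (1 was called lower without the shared library), 1 had an unadjusted p under 0.05 by edgeR, and their changes ran from -0.17 to 0.56. In the IGF2BP2 knockout 1 rose and 3 fell; IFNAR2, a subunit of the type I receptor, fell by 0.61 (SE 0.14, adjusted p 0.00374), and IRF1, a transcription factor, rose by 0.41 (SE 0.14, adjusted p 0.0272). With DESeq2, 0 rose and 2 fell there, and IRF1 was not called (adjusted p 0.151). In the IGF2BP3 knockout 5 rose and 3 fell; IRF9, the DNA-binding subunit of the interferon-activated complex, rose by 0.64 (SE 0.20, adjusted p 0.0191), IRF1 by 0.60 (SE 0.13, adjusted p 0.00258) and IFNAR2 by 0.55 (SE 0.13, adjusted p 0.00435). With DESeq2, 4 rose and 2 fell, and IRF9 was not called (adjusted p 0.101). In nuclear RNA of the IGF2BP1 knockout, shared library included, 2 of 12 rose and 1 fell, against 25.7% of all genes called. In its cytoplasmic RNA 1 of 12 rose and 1 fell, against 44.4%. DESeq2 called 1 and 2 in these RNA kinds. The cytoplasmic calls by edgeR were IRF1, at -0.58 (SE 0.12, adjusted p 0.000133), and JAK1, at 0.21 (SE 0.04, adjusted p 9.38e-05).

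The neighbours on chromosome 3 were the 13 genes in the count tables, of 18 in RefSeq, that start within 250 kb of the stretch from PARP9 to PARP14. Of these, 9 were tested in total RNA, where 2 rose and 3 fell in the IGF2BP2 knockout, with a median of -0.27, and 1 rose and 4 fell in the IGF2BP3 knockout, with a median of -0.28. FAM162A fell by 0.94 (SE 0.13, adjusted p 5.46e-05) and by 0.74 (SE 0.12, adjusted p 0.00033) in these knockouts, and MIX23 fell by 1.07 (SE 0.12, adjusted p 1.84e-05) in the IGF2BP3 knockout. WDR5B rose by 0.69 (SE 0.12, adjusted p 0.00112; 0.72 without the shared library) in the IGF2BP1 and by 0.49 (SE 0.12, adjusted p 0.00351) in the IGF2BP2 knockout. It was also the 1 neighbour that rose in the IGF2BP3 knockout, by 0.45 (0.46 with DESeq2, adjusted p 0.0321). In nuclear RNA no neighbour was called higher in any knockout. In cytoplasmic RNA WDR5B rose by 1.02 (SE 0.11) in the IGF2BP2 and by 0.70 (SE 0.11) in the IGF2BP3 knockout. Its nuclear to cytoplasmic ratio changed by -0.996 (SE 0.17) and -0.546 (SE 0.17), both called by edgeR. DESeq2 called no neighbour for the ratio in the IGF2BP3 knockout.

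**Figure D4:**
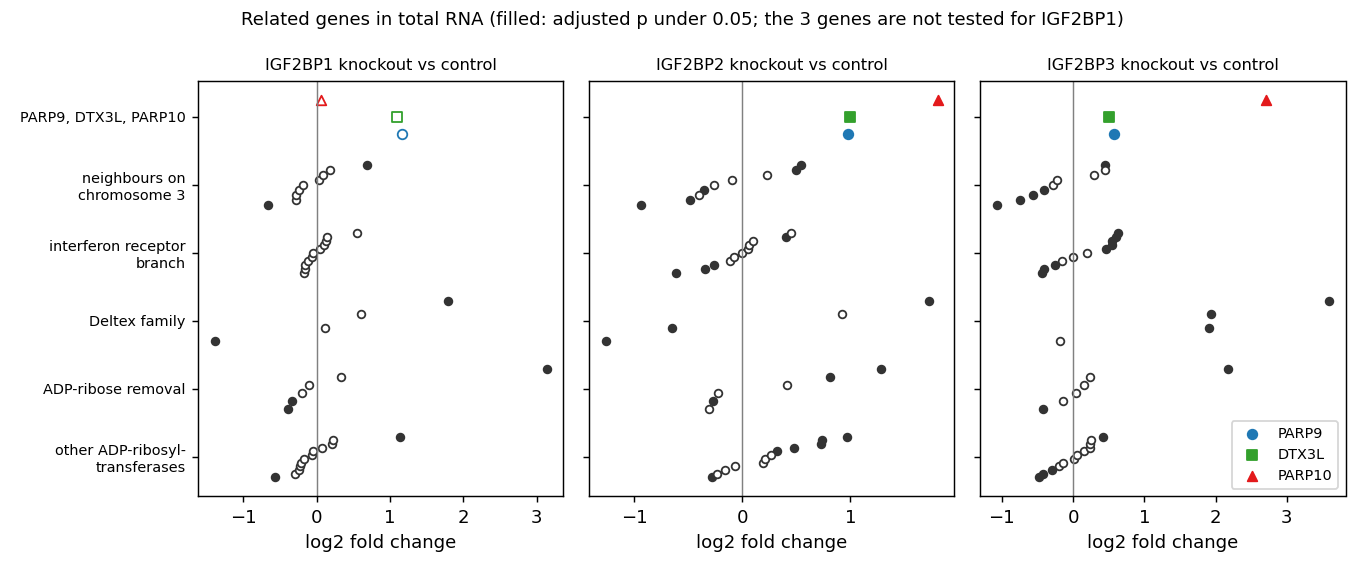
Log2 fold change in total RNA (linear axes, whose range differs between panels) of each tested gene of 5 related lists and of PARP9, DTX3L and PARP10 in each knockout against control. Filled symbols passed an adjusted p of 0.05, and the 3 coloured genes were not tested in the IGF2BP1 knockout. Interferon receptor branch genes lie between -0.61 and 0.64, while the Deltex list spreads from -1.39 to 3.59.

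The genes with the pattern most like the mean of PARP9 and DTX3L across the 31 libraries, among 14434 genes of at least 1 CPM, were CKAP2 (r 0.95), DSC3 (r 0.95), FGF9 (r 0.95), DSG2 (r 0.94) and PARM1 (r 0.94). DSC3, a desmosomal cadherin, was at 58.7 ± 6.66 CPM in the control (SD, n = 4) and at 111 ± 0.978, 145 ± 4.30 and 112 ± 1.94 CPM in the IGF2BP1, IGF2BP2 and IGF2BP3 knockouts in total RNA (SD, n = 2 each). FGF9, a growth factor, was at 1.65 ± 0.366 CPM in the control (SD, n = 4) and at 5.92 ± 1.18, 7.34 ± 0.416 and 4.02 ± 0.0135 CPM (SD, n = 2 each). The genes most like PARP10 were OSBP2 (r 0.98) and TMEM132E (r 0.97). TMEM132E was at 2.37 ± 0.435 CPM in the control (SD, n = 4) and at 3.12 ± 1.62, 8.54 ± 0.0739 and 17.4 ± 0.260 CPM in the IGF2BP1, IGF2BP2 and IGF2BP3 knockouts in total RNA (SD, n = 2 each). In the total IGF2BP1 knockout library that is not shared, DSC3 was at 111, FGF9 at 6.75 and TMEM132E at 4.27 CPM. These correlations are Pearson's r over libraries that share genotypes and batches, and they carry no test.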

How the data were processed

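Poly(A) RNA of HEK293T cells was sequenced as total, nuclear and cytoplasmic RNA in 32 libraries. The authors deposited raw read counts per Ensembl gene, made with STAR and featureCounts on GRCh38, per the submitters' processing notes, which also name DESeq2 1.44.0; the annotation and strand setting are not given in the sources used here. The authors also deposited FPKM values. Counts divided by FPKM gave a gene length near the whole gene span (median ratio 0.95, 0.92 and 0.94 in total, nuclear and cytoplasmic RNA) and 5.68 to 5.91 times the exon length, so FPKM was not used to compare genes, and CPM per kb of GENCODE 29 exon union was computed instead, a change from the planned use of FPKM. CPM is the count scaled to a library total of 1000000.

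Within each RNA kind all libraries entered 1 edgeR 4.0.16 quasi-likelihood fit (R 4.3.3) with TMM, filterByExpr by group, a term per knockout and the batch of the labels, which pairs each knockout library with a control library. The IGF2BP1 knockout is in batches 1 and 2, the other knockouts in 3 and 4, and 2 cytoplasmic IGF2BP3 knockout libraries in batch 5 without a control. The nuclear to cytoplasmic ratio was fitted with an interaction term, leaving out batch 5. The threshold was a Benjamini-Hochberg adjusted p of 0.05, and SE is the change divided by the square root of the F statistic. The fit was run on simulated total RNA counts with the same spread for all genes and no batch effect. That setting is simpler than these libraries, so it checks the code and not the calls made here. The 2 libraries with identical counts stayed in the fits of their labels.

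The members and gene lists were chosen with earlier results of these data known. Named genes were the 5 members, up to 3 called genes with the largest change per list and comparison, the most alike genes (log2 of CPM + 0.5), fraction markers and edited genes. A planned list gene and a planned motif are not reported here. Gene coordinates were matched by Ensembl identifier, and promoter sequences came from RefSeq on GRCh38.p14. Alternatives were RLE and upper quartile scaling, DESeq2 1.42.0, no filter, no batch term, only a knockout's own batches and leaving out each library.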

Additional observations from a re-analysis of the deposited data

Results flagged for a closer look

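PARP12 in the nuclear control was at 0.125 CPM (2 counts) in library 4 and at 0 in the other 3 libraries, and in the total control it was at 0.0468 CPM (1 count) in library 3 and at 0 in the other 3. In both groups the highest library stood apart from the rest by more than Dixon's 95% critical value. With 3 of 4 libraries at 0, Dixon's ratio is 1 whatever the remaining value, so both flags rest on 1 or 2 counts. Of the 20 groups of 4 libraries, those of PARP14 were at 0 throughout and could not be flagged.

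The nuclear to cytoplasmic ratio of PARP9 changed by 0.71 (SE 0.26, adjusted p 0.0442, edgeR) in the IGF2BP2 knockout: its fitted rise against control was 1.39 in nuclear RNA and 0.64 in cytoplasmic RNA. The same interaction was 0.68 (adjusted p 0.0803) in the IGF2BP3 knockout, and the call in the IGF2BP2 knockout was lost under several alternatives given with the result.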

How the results depend on the processing

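The batch of the labels is the replicate block here. Without the block, the members called fell from 2 to 1 for the IGF2BP3 against the IGF2BP2 knockout in nuclear RNA and from 1 to 0 for the ratio in the IGF2BP2 knockout. For the IGF2BP3 knockout in cytoplasmic RNA the call passed from DTX3L to PARP9. With DESeq2 the members called were 1 in place of 3 for the IGF2BP3 knockout in total RNA, 1 in place of 3 for IGF2BP3 against IGF2BP2 in total RNA, 1 in place of 2 in nuclear RNA, 1 in place of 2 for the IGF2BP3 knockout in cytoplasmic RNA, and 0 in place of 1 for the ratio in the IGF2BP2 knockout. That ratio also gave 0 with RLE and with upper quartile scaling. Leaving out single libraries gave 1 to 3 for the IGF2BP3 knockout in total RNA, 0 to 3 for IGF2BP3 against IGF2BP2 in total RNA, 1 to 3 in nuclear RNA, 1 to 2 for the IGF2BP3 knockout in cytoplasmic RNA, and 0 to 1 for the ratio in the IGF2BP2 knockout. The 3 genes tested were called higher in the IGF2BP2 knockout in every RNA kind, and in nuclear RNA of the IGF2BP3 knockout, under each alternative run.

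The change of the PARP10 ratio turned from 0.03 to -0.017 with upper quartile scaling in the IGF2BP2 knockout; leaving out libraries gave -0.51 to 0.56 there and -0.68 to 0.26 in the IGF2BP3 knockout, with none called. All genes called in the IGF2BP1 knockout numbered 4528 in total RNA, 2354 with only batches 1 and 2 and 3055 to 7388 with a library left out. In nuclear RNA they numbered 4811 and with DESeq2 3062, and in cytoplasmic RNA 8095 and without the block 4185. For the ratio, 3376 genes in the IGF2BP2 and 2100 in the IGF2BP3 knockout became 1050 and 656 with DESeq2 and 1674 and 639 without the block. Leaving out a library gave 4656 to 11185 genes in the IGF2BP2 and 5065 to 11328 in the IGF2BP3 knockout in total RNA, 3848 to 10834 between them (8118 with all libraries), 5930 to 10273 and 6235 to 10476 in nuclear RNA (9306 and 9447), so the shares of all genes called carry this range, and 938 to 3785 and 377 to 2397 for the ratio. Upper quartile scaling moved the median change by 0.10, 0.13, 0.15 and 0.17 and the share of higher calls from 49.6% to 60.5%, 50.1% to 64.5%, 48.2% to 61.6% and 48.6% to 64.6% (IGF2BP2 and IGF2BP3 knockouts, total then cytoplasmic RNA), from 44.1% to 55.3% in the IGF2BP1 knockout in total RNA, and from 44.5% to 31.4% for the ratio in the IGF2BP2 knockout, which was 28.8% with DESeq2 and 32.9% without the block. The cause of these differences was not tested. Depth limits PARP12 and PARP14, at no more than 6 counts in a library, and PARP10 in cytoplasmic control libraries, at 7 to 13 counts.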
